A study of Arabidopsis thaliana with 3 samples.

Results

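The miRNA precursor genes described here are the 169 rows of the deposited root expression table whose name is MIR followed by a family number and, for most, a letter for the member. They were chosen by name alone, out of 33446 genes listed. The RNA came from roots of 14-day-old Arabidopsis thaliana (thale cress) plants of ecotype Col-0, which expressed INTACT, a nuclear envelope tag that joins the WPP domain of RanGAP1 to GFP and a biotin acceptor. The tag was driven by the constitutive 35S promoter, several independent transformants had been raised, and the line or lines behind the RNA are not named in the sources used here. Plants were grown in long days on vertical dishes with MS (Murashige and Skoog) medium at a small fraction of full strength. From this single condition 3 libraries were sequenced with single-end reads of 61 bases. Each gene has just 1 deposited value, in a column named for roots. SDs, a comparison of replicates and tests between samples were therefore not possible. In a whole root, fewer cells that use a gene and less RNA per cell cannot be told apart.

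Plant miRNA genes are transcribed by RNA polymerase II into capped and polyadenylated primary transcripts that hold a fold-back, the hairpin. The nuclease Dicer-like 1 (DCL1) cuts the short mature miRNA out of the hairpin, and an Argonaute protein, mostly AGO1, uses it to find mRNAs with a nearly complementary site, which are cleaved or kept from translation. Members of a family differ in locus but carry the same or nearly the same mature sequence. In roots, miRNA families are best known for their part in phosphate, sulfate, copper and nitrogen supply, in auxin signalling and in patterning. RNA-seq of long RNA reads the primary transcripts and the uncut hairpins over the annotated locus, not the mature miRNA, so the values below say nothing about how much mature miRNA was made.

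Values are RPKM, reads scaled by gene length and by library size. Each MIR name was looked up in the TAIR10.1 annotation, and 161 names led to a single miRNA gene, 111 by symbol and 50 by synonym. The remaining 8 names, MIR159, MIR160, MIR165, MIR166, MIR172, MIR319, MIR390 and MIR395, are family names that fit several loci and were kept by name without a position. The annotated loci are short, from 73 to 689 bp with a median of 143 bp, and each is a single exon. The spacing of the low values of other genes gave a depth of 118729000 reads, so that 1 RPKM over 100 bp is worth 11.8 reads. Read numbers computed with it for the members fell within 0.05 of a whole number for 57 of the 96 matched members above 0. They were whole for 37 of the 53 of these under 12 reads (69.8%, where 10% would be by chance). The intervals given below for RPKM values are 95% exact Poisson intervals of these read numbers, rounded to whole reads. They cover counting error only, not the spread between plants, and are approximate where the number was not whole.

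The tissue label was checked against its marker genes. All 8 root genes on the list were above 1 RPKM, from 6.77 RPKM for PLT1, a stem cell regulator of the root tip, to 203 RPKM for CASP1 of the Casparian strip and 204 RPKM for the phosphate transporter gene PHT1;1. Of 3 photosynthesis genes, LHCB1.1 was at 0.136 RPKM, CAB3 at 0.760 RPKM and RBCS1A at 14.1 RPKM. The 7 housekeeping genes, chosen after the values were seen, lay between 14.1 and 1585 RPKM and none was at 0.

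The mature sequences of the precursors with the highest values are shown first, since family membership and the pairing with target mRNAs are read from them. Each is given 5′ to 3′ from the TAIR10.1 sequence at its annotated position, with the seed, bases 2 to 8, in capitals.
miR163: uUGAAGAGgacuuggaacuucgau
miR414: uCAUCUUCaucaucaucguca
miR399d: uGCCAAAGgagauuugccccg
miR399b and miR399c-3p: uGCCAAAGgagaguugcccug
miR822-5p: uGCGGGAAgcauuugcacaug
miR827: uUAGAUGAccaucaacaaacu
miR397b: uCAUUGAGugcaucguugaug
miR397a: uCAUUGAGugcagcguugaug
miR857: uUUUGUAUguugaagguguau
miR842: uCAUGGUCagauccgucaucc
miR775: uUCGAUGUcuagcagugcca
The 3 miR399 sequences share the seed GCCAAAG, which 6 entries of that family carry and no other family does. Likewise miR397a and miR397b share a seed and differ at a base in the middle. The other sequences shown have seeds of their own.

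Most MIR entries were low in roots, and a few held most of the signal. Of the 169 entries, 102 were above 0 (60.4%), 41 were above 1 RPKM (24.3%, 95% Wilson interval 18.4 to 31.2%) and 8 were above 10 RPKM (4.73%). The corresponding shares of all 33446 listed genes were 79.0% above 0, 56.0% above 1 and 28.8% above 10 RPKM. The median entry had 0.106 RPKM, against 2.21 RPKM for all listed genes. Summed over the 169 entries, RPKM came to 345, which was 0.0567% of the sum of the whole table. The 5 highest entries held 51.0% of that sum and the 10 highest held 70.4%. These shares are descriptions of a single column, and no test was run on them.

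Other classes of genes were set beside the MIR entries. Length was limited only for the short protein-coding genes, so the other classes differ from MIR loci in length as well. Among 1011 protein-coding genes with at most 400 bp of exon, 42.6% were above 0 and 10.5% above 1 RPKM. Of 224 lncRNA genes, 77.7% were above 0 and 14.3% above 1 RPKM, with a median of 0.0986 RPKM, close to that of the MIR entries. Entries above 0 were thus less frequent among MIR genes than among lncRNA genes, and entries above 1 RPKM more frequent. The 71 snoRNA genes stood higher, with 69.0% above 1 RPKM, and the 634 tRNA genes lower, with 2.68%. How far the library preparation captured RNA of each class was not tested. The shares therefore need not order the classes by expression.

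**Figure D1:**
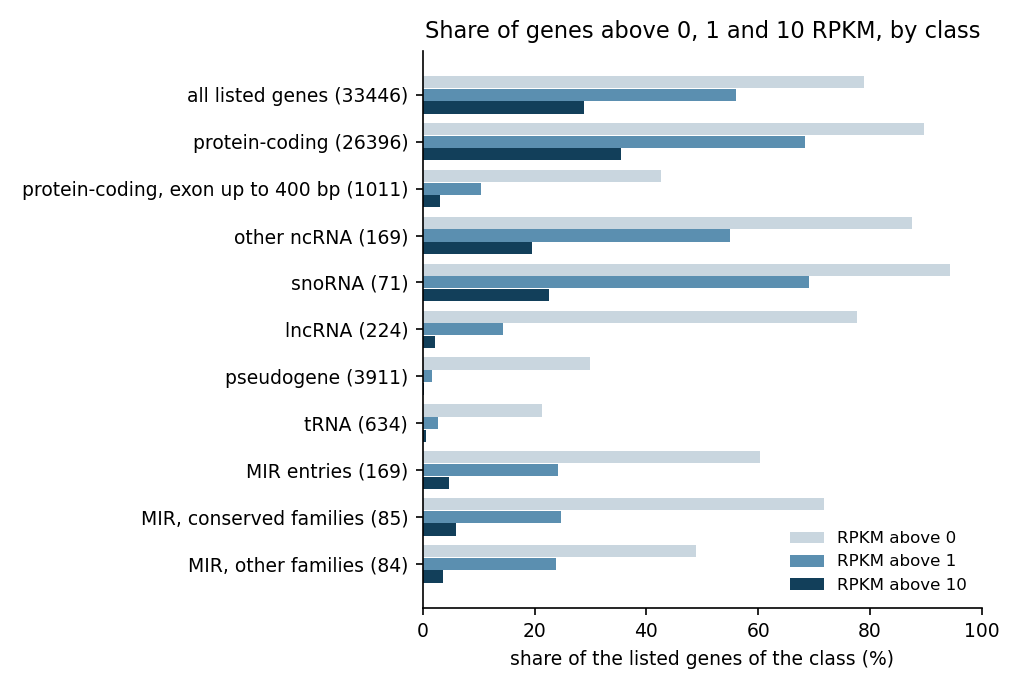
Share of the listed genes above 0, above 1 and above 10 RPKM in roots, in percent, for gene classes of the TAIR10.1 annotation and for the MIR entries, with the number of genes in brackets. The bars for MIR entries end at 60.4, 24.3 and 4.73%, and those for all listed genes at 79.0, 56.0 and 28.8%.

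The highest MIR entry was MIR163 (AT1G66725, chr1:24884066-24884396, plus strand), with 61.5 RPKM and a counting interval of 59.1 to 64.0 RPKM. It ranked 1928 of all listed genes and alone held 17.8% of the summed MIR signal. Its mature product is 24 bases long, where 21 is usual, and comes from a hairpin of 331 bp. The nearest listed genes lay 1585 bp away on the left, at 0.00757 RPKM, and 284 bp away on the right, at 2.94 RPKM. MIR163 was therefore far above both of its neighbours.

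MIR414 (AT1G67195, chr1:25137456-25137563, minus strand) came next with 34.8 RPKM (31.6 to 38.2 RPKM). Its locus has an unusual sequence, and it is shown here for that reason, with the annotated mature sequence in capitals.
MIR414 locus: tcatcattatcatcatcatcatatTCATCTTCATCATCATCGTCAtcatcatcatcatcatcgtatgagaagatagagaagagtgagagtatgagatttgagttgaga
The mature stretch lies inside a run of the trinucleotide tca and its variants. Its best predicted fold had −0.194 kcal/mol per base, the weakest among the 37 matched entries above 1 RPKM, whose median was −0.388 kcal/mol per base. MIR414 belongs to a group of families, MIR413, MIR414, MIR416 to MIR420 and MIR426, that came out of early computational prediction. The others of this group were far lower or at 0, with MIR419 at 2.89 RPKM, MIR413 at 2.00 RPKM, MIR420 at 0.0851 RPKM, and MIR416, MIR417, MIR418 and MIR426 at 0.

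The MIR399 family, whose mature miRNA acts against the mRNA of the phosphate regulator PHO2, had the highest summed level of the 104 families, 64.2 RPKM over 6 entries. MIR399D (AT2G34202) had 30.9 RPKM (363 reads, 27.8 to 34.2 RPKM) and MIR399C (AT5G62162, chr5:24962485-24962598, plus strand) had 26.8 RPKM (360 reads, 24.1 to 29.8 RPKM). Their intervals overlap, so counting error alone covers the gap between them. MIR399B was lower at 5.66 RPKM (4.55 to 6.95 RPKM), MIR399F had 0.792 RPKM from 11 reads, MIR399E had 0.0780 RPKM from a single read and MIR399A was at 0. Members with the same seed thus ranged from 0 to among the highest MIR entries in the same roots.

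MIR399D, MIR399E and MIR399F lie side by side on chromosome 2, with gaps of 426 and 1384 bp, MIR399D on the minus strand and the others on the plus strand. The hairpin of MIR399D is shown, as the highest member with a short locus, with the mature sequence in capitals. It covers chr2:14442978-14443077.
MIR399D hairpin: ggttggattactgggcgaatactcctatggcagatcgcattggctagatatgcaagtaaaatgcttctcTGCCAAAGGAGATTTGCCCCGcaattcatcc
The hairpin folds with −0.450 kcal/mol per base and 76.0% of its bases are paired in the prediction. It is thus predicted to be a far stronger fold than MIR414.

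MIR827A (AT3G59884, chr3:22122760-22122936, minus strand), the precursor of a miRNA that acts on the ubiquitin ligase gene NLA in phosphate supply, had 22.2 RPKM (20.2 to 24.3 RPKM). MIR2111 is also linked to phosphate. Its loci are listed under locus names and fall outside the rule, with 2.89 RPKM for MIR2111a and 0.212 RPKM for MIR2111b. The target mimic IPS1, a long RNA that binds miR399 without being cut, was at 695 RPKM and ranked 54 of all listed genes. IPS1 thus stood far above every MIR entry in this table.

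The copper-linked families, which act on mRNAs of copper proteins such as laccases and superoxide dismutases, were split. MIR397B (AT4G13555, chr4:7878652-7878760, minus strand) had 17.4 RPKM (15.2 to 19.8 RPKM) and MIR397A (AT4G05105, chr4:2625950-2626056, plus strand) had 7.31 RPKM (5.89 to 8.97 RPKM), and the counting intervals do not overlap. MIR857A (AT4G13554, chr4:7878185-7878561) lies 90 bp from MIR397B on the same strand and had 9.48 RPKM (8.59 to 10.4 RPKM). MIR408 was at 1.89 RPKM, MIR398C at 1.03 RPKM, MIR398A at 0.243 RPKM and MIR398B at 0. So MIR397 and MIR857 were well above MIR408 and MIR398, and the MIR398C interval, 0.565 to 1.74 RPKM, includes 1.

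The sulfate-linked MIR395 family, which acts on ATP sulfurylase and sulfate transporter mRNAs, was near 0 in all of its entries. MIR395E had 0.0896 RPKM and MIR395B 0.0851 RPKM, each from a single read, and MIR395, MIR395A, MIR395C and MIR395F were at 0. Read numbers this small cannot order the members. The loci lie in tight groups on chromosome 1, with MIR395A, MIR395B and MIR395C separated by 1182 and 2509 bp and MIR395E and MIR395F by 987 bp. The family with the most entries, MIR169, linked to nitrogen supply and acting on NF-YA factors, was also low. Of its 14 entries, 6 were above 0 and none was above 1 RPKM, with MIR169A highest at 0.887 RPKM. Neighbouring MIR169 loci on chromosome 3, from MIR169I to MIR169N, are separated by 155 to 2971 bp and held 0 to 0.160 RPKM. The nitrogen-linked MIR393A and MIR393B had 0.447 and 0.265 RPKM.

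The families of development and auxin signalling were mostly between these extremes. MIR160, which acts on auxin response factors, summed to 10.9 RPKM, of which the entry with the family name held 8.001 RPKM, MIR160B 1.90 RPKM (1.17 to 2.96 RPKM) and MIR160A 0.972 RPKM. MIR159, which acts on MYB mRNAs, summed to 10.9 RPKM, with 10.02 RPKM in the entry with the family name, 0.931 RPKM in MIR159A and 0 in the third. Which locus the names MIR159 and MIR160 stand for was not settled. MIR164B, of the family that acts on NAC factors, had 3.53 RPKM, MIR164C 0.849 RPKM and MIR164A 0. Likewise MIR171C, whose miRNA acts on HAM factors of the GRAS family, had 3.30 RPKM, against 0.653 RPKM for MIR171B, 0.555 RPKM for MIR171A and 0.535 RPKM for MIR170.

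In MIR156, which holds back SPL factors and so adult growth, a single member carried 50.6% of the family sum. MIR156A had 2.08 RPKM (1.40 to 2.96 RPKM), MIR156B 0.960 RPKM, and the other 6 entries were between 0 and 0.443 RPKM. The entries MIR156A to MIR156F carry the same mature sequence, so mature miR156 could not be traced to a locus from its sequence. MIR157, a related family, reached 0.187 RPKM in MIR157B. MIR166A had 1.81 RPKM, MIR166 1.46 RPKM and MIR166E 0.817 RPKM, and MIR165A, of a miRNA that shares the seed CGGACCA, had 0.337 RPKM. Both numbers act on HD-ZIP III factors of root and leaf patterning. MIR319, which acts on TCP factors of leaf growth, had 2.86 RPKM. The remaining families of this group lay near or under 1 RPKM. MIR396A, which acts on GRF growth factors, had 1.35 RPKM (0.863 to 2.01 RPKM), MIR167B 1.22 RPKM (0.713 to 2.03 RPKM), and MIR172E, acting on AP2-type factors, 0.815 RPKM. MIR394B was at 0.211 RPKM, MIR390 at 0.150 RPKM and MIR828A at 0.133 RPKM.

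Of the 5 precursors whose miRNAs act on genes of the miRNA pathway itself, MIR162A, MIR168A and MIR403 were above 1 RPKM, and MIR162B and MIR168B were not. MIR162A (AT5G08185), whose miRNA acts on DCL1, had 6.41 RPKM (5.26 to 7.77 RPKM), against 0.194 RPKM for MIR162B with the same mature miR162-3p. MIR168A, whose miRNA acts on AGO1, had 1.64 RPKM (1.09 to 2.42 RPKM), and MIR168B was at 0. MIR403, whose miRNA acts on AGO2, had 2.83 RPKM (2.06 to 3.78 RPKM).

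**Figure D2:**
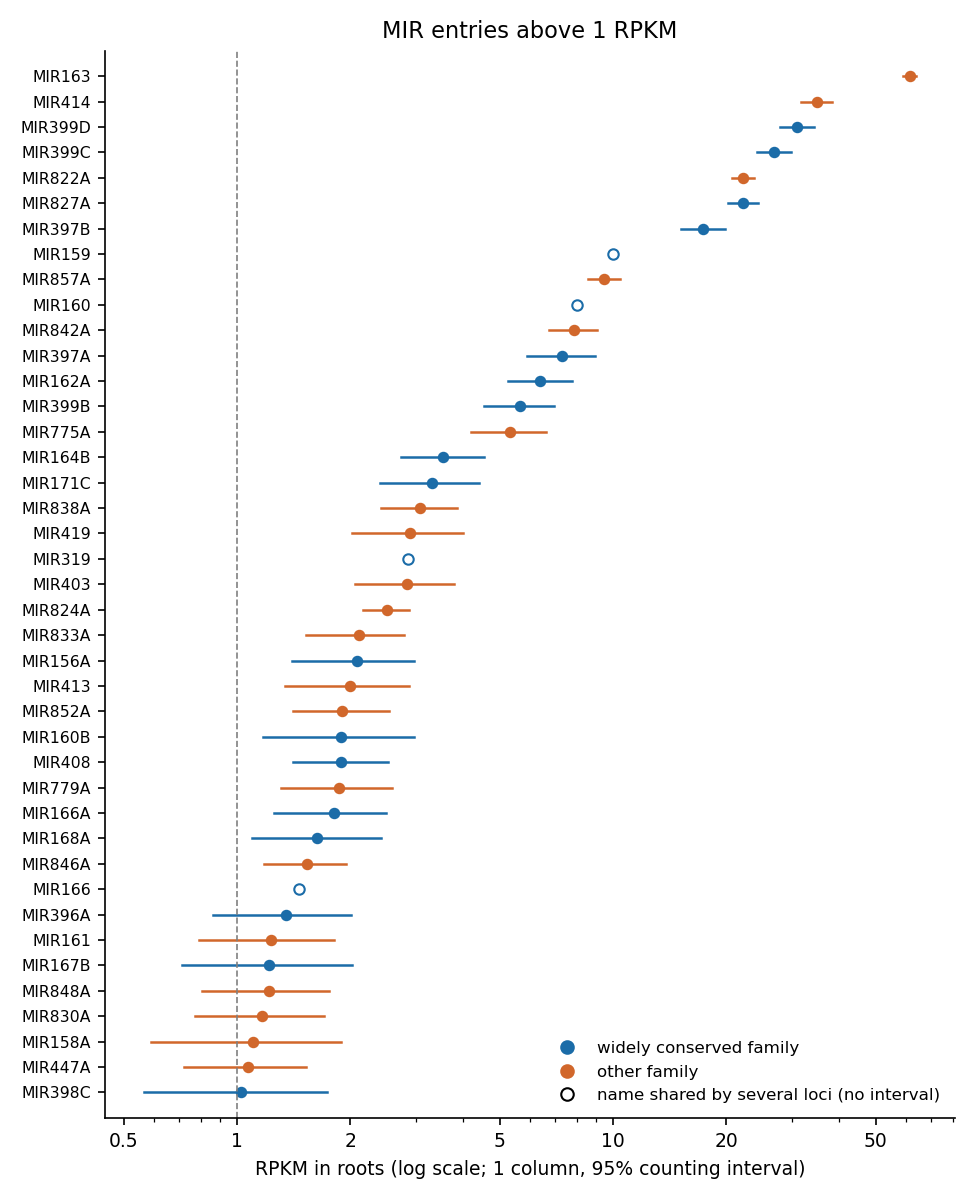
RPKM in roots of the 41 MIR entries above 1 RPKM on a log axis, from MIR163 at 61.5 RPKM to MIR398C at 1.03 RPKM. Points are the deposited values, lines are 95% counting intervals, open points are names shared by several loci, and the dashed line marks 1 RPKM. The counting intervals of the lowest entries reach below 1 RPKM.

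Outside the widely conserved families, MIR822A (AT5G03552, chr5:897020-897356, minus strand) came after MIR163 and MIR414, with 22.2 RPKM (20.8 to 23.7 RPKM). MIR842A (chr1:22577067-22577265) and MIR846A (chr1:22577375-22577733) lie 109 bp apart on the same strand of chromosome 1 and had 7.87 and 1.54 RPKM. MIR775A (chr1:29422452-29422574, plus strand) had 5.32 RPKM from 77 reads. MIR824A, whose miRNA acts on the MADS-box gene AGL16, had 2.50 RPKM, and its locus is the longest of all at 689 bp. MIR833A had 2.11 RPKM, MIR852A 1.90 RPKM and MIR779A 1.87 RPKM. Besides those described elsewhere in the text, the entries of these families above 1 RPKM were MIR161, MIR848A, MIR830A, MIR158A and MIR447A, between 1.07 and 1.23 RPKM, and the counting interval of each includes 1.

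Entries were sorted into 26 widely conserved families with 85 entries and 78 other families with 84 entries. In the conserved families 61 entries (71.8%) were above 0, and in the others 41 (48.8%). The shares above 1 RPKM were close, 24.7% (16.8 to 34.8%) and 23.8% (16.0 to 33.9%). Above 2 RPKM they were also close, 15.3% and 14.3%. They lay further apart above 0.5 RPKM, at 37.6% and 25%, and after rescaling to TPM, above 1, at 35.3% and 23.8%. Every conserved family had an entry above 0, and 16 of the 26 had one above 1 RPKM. Of the other 78 families, 37 were at 0 throughout and 20 had an entry above 1 RPKM. Summed RPKM was 173 in the conserved families and 172 in the others, of which MIR163 and MIR414 supplied the larger part.

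**Figure D3:**
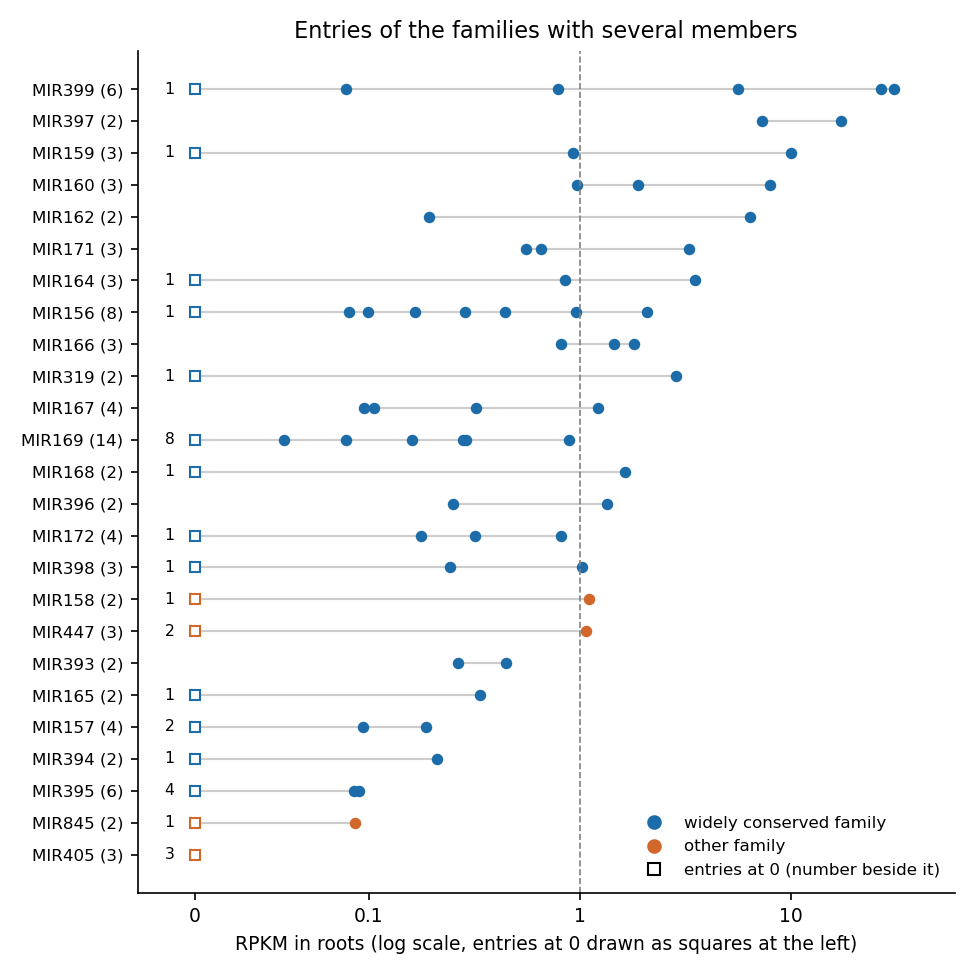
RPKM in roots on a log axis of each entry of the 25 families with several entries, with the number of entries in brackets. Squares at the left are entries at 0, with their number, and the dashed line marks 1 RPKM. In MIR399 the entries run from 0 to 30.9 RPKM, while all 14 entries of MIR169 lie under 1 RPKM.

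A value of 0 has a different reach for each short locus. The 65 matched entries at 0 had an upper limit of 3 reads, equal to 0.0633 to 0.351 RPKM with a median of 0.156 RPKM. An entry at 0 could thus have any level up to its own limit. A further 24 matched entries rested on 1 to 3 reads. Over all matched entries, the counting interval was wholly above 1 RPKM for 29, wholly below for 111 and included 1 for 21. The entries at 0 did not differ much in the annotated features. Their median length was 163 bp, against 151 bp for the entries above 1 RPKM, their median GC content 37.6% against 38.2%, and their median fold energy −0.397 against −0.388 kcal/mol per base. The GC content of the genome was 36.0%.

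Loci can also lose reads to other genes, because HTSeq, which the authors used for counting, by default leaves out reads that fall on several genes, and the use of strand is not stated in the sources used here. Of the 161 matched loci, 37 overlapped another listed gene, 28 on the same strand and 9 on the opposite strand. Of the 18 loci that shared bases with an exon of the listed gene, 7 were above 0 (38.9%) and 2 above 1 RPKM. Of the 19 loci that lay in an intron or otherwise off its exons, 15 were above 0 (78.9%) and 5 above 1 RPKM. For the 120 loci that overlapped no annotated gene, 58.3% were above 0. Values of loci on shared exons are therefore uncertain, and the part of the counting rule in them was not tested.

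Single cases show both patterns. MIR398B was at 0 and lies with all 116 bases in an exon of AT5G14550, on the opposite strand, which had 25.7 RPKM. MIR860A was at 0 inside an exon of FC1 (26.8 RPKM), and MIR862A and MIR778A were at 0 inside introns of PKL (17.4 RPKM) and AT2G41620 (11.2 RPKM). MIR838A, in an intron of DCL1 on the same strand, had 3.07 RPKM (2.41 to 3.84 RPKM), beside 2.78 RPKM for DCL1. MIR852A had 1.90 RPKM in an intron of AT4G14500, which had 22.2 RPKM, and MIR837A had 0.230 RPKM in an intron of NRT1.9, at 55.8 RPKM. Whether reads of the genes around them entered the values of intronic entries was not tested. MIR397A lies opposite an intron of ENT6 (1.11 RPKM), and all 218 bases of MIR408 lie opposite an exon of AT2G47020 (0.986 RPKM). Which strand the reads behind these values came from is not known. Exact copies were few, since 153 of the 161 loci held only 61-base windows that occur at a single place in the genome. The exceptions were MIR401, the 3 MIR405 entries, MIR169L and MIR169N, all at 0, and MIR447A and MIR447B at 1.07 and 0 RPKM. Copies that differ at single bases were not searched for, and the shared family names were not covered.

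Promoter sequence was compared with the pattern of the nutrient-linked families. The window ran from 250 bases before to 50 bases after the annotated start, which for MIR genes is the end of the hairpin and not the transcription start. The motif GNATATNC, the binding sequence of the phosphate starvation factor PHR1, was found in 6 of the 7 MIR399 and MIR827 loci (85.7%). Of all 37899 annotated genes on the nuclear chromosomes, 6.13% held it, and of the 161 matched MIR loci 10.6%. Of the 7 copper-linked loci, 1 held it (14.3%), MIR408. The motif reads as itself on the other strand, so both strands were covered. MIR399B was the locus without a match in this window, and all 7 had one within 1000 bases before the start, against 19.8% of all genes. The presence of the motif did not order the levels, since MIR399A, at 0, and MIR399E, at 0.0780 RPKM, also held it. The windows of MIR399D and MIR827A are shown 5′ to 3′ on the strand of the gene, with the matches in capitals, at chr2:14443028-14443327 and chr3:22122887-22123186.
MIR399D: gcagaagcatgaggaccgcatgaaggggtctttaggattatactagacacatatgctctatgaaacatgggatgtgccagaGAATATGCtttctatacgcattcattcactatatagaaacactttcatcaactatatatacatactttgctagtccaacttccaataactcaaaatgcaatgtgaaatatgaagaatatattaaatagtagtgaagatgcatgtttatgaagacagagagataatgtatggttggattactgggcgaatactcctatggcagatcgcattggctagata
MIR827A: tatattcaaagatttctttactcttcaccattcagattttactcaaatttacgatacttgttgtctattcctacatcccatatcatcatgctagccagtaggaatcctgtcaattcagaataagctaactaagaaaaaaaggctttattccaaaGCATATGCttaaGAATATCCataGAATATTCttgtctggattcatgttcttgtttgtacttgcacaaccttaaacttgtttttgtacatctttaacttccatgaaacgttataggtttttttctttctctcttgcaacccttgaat
MIR827A holds 3 matches at −96, −84 and −73, and MIR399D has 1 match at −169.

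The copper response core GTAC, which the factor SPL7 binds, is short and was in the windows of 39.7% of all genes. It was found in 5 of the 7 copper-linked loci (71.4%), often repeated, and in 3 of the 7 phosphate-linked loci (42.9%). MIR397B had 4 matches within 50 bases, MIR397A had 3, MIR408 had 4, MIR398C had 3 and MIR398B had 5, while MIR398A and MIR857A had none in the window. In the 1000 bases before the start all 7 loci held the core, but so did 81.9% of all genes. MIR857A then had 8 matches, and since it lies 90 bp from MIR397B on the same strand, its upstream sequence takes in that of MIR397B. The number of matches and the levels were not compared further, as the 0 of MIR398B lies wholly on an exon of another gene. The window of MIR397B is shown for its cluster of matches, at chr4:7878711-7879010.
MIR397B: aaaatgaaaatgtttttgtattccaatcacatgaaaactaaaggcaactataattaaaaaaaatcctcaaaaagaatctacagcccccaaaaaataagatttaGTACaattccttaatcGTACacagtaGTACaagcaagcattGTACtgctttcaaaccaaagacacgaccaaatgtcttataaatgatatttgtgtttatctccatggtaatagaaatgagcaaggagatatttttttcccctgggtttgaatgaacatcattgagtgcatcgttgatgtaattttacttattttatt
The TATA box TATAAA was in 54.0% of the MIR windows and 48.8% of all genes, with 40.5% for MIR entries above 1 RPKM and 61.5% for those at 0. A match is a run of letters and does not show that a factor binds.

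**Figure D4:**
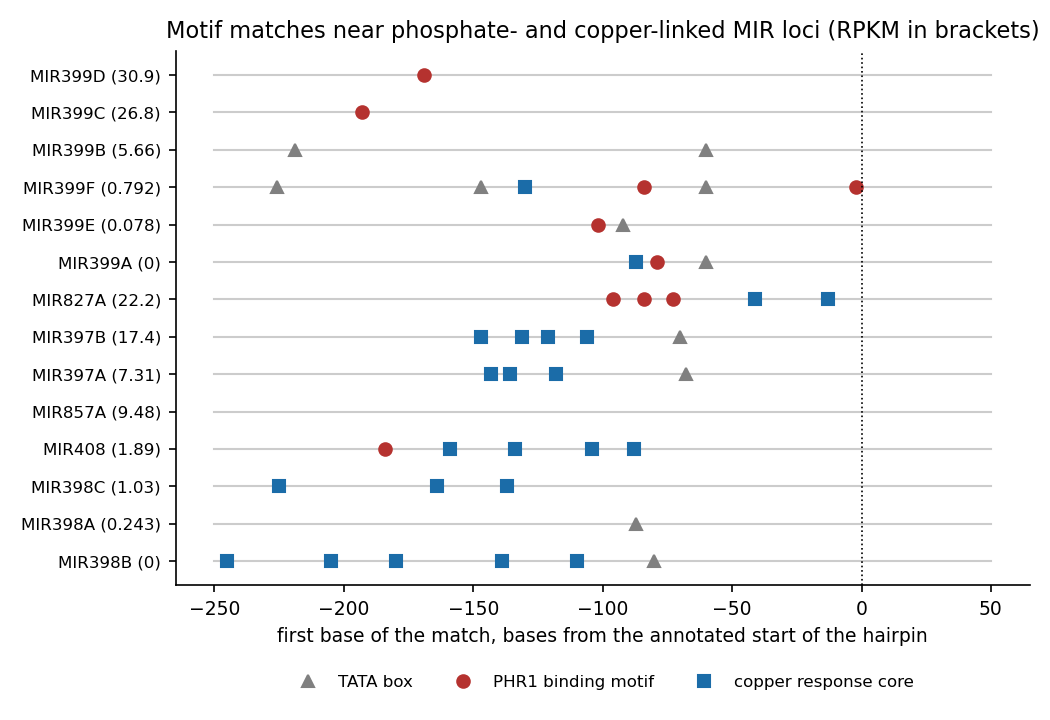
Position of each motif match, in bases from the annotated start of the hairpin, in the 7 phosphate-linked (upper) and 7 copper-linked (lower) MIR loci, with RPKM in roots in brackets. Circles are the PHR1 binding motif, squares the copper response core and triangles the TATA box. Circles stand on 6 of the 7 phosphate-linked loci and squares are repeated on MIR397, MIR398B, MIR398C and MIR408. A circle also stands on MIR408, and squares on MIR399A, MIR399F and MIR827A.

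Genes that make and use miRNAs were detected in roots. Of the 24 pathway genes on the list, 23 could be matched to a value, and all 23 were above 1 RPKM, with a median of 7.60 RPKM and 9 above 10 RPKM. HST, the gene without a value, is not described. Beside this, 56.0% of all listed genes and 68.4% of the 26396 protein-coding genes were above 1 RPKM, and the protein-coding median was 4.85 RPKM. Among the processing genes, DCL1 was lowest at 2.78 RPKM, its partner HYL1 had 7.60 RPKM and the zinc finger protein gene SE had 26.2 RPKM. The cap-binding genes ABH1 and CBP20 had 16.7 and 16.9 RPKM, DDL 22.9 RPKM, and PRL1 and CDC5, of a spliceosome-associated complex, 46.4 and 43.2 RPKM. HEN1, which methylates the miRNA ends, was at 2.36 RPKM. Among the effectors, AGO1 had 20.2 RPKM, its cochaperone SQN 19.96 RPKM, AGO2 5.72 RPKM, AGO10 4.65 RPKM and AGO7 2.01 RPKM. URT1, which adds uridine tails in turnover, had 23.1 RPKM. The genes for secondary siRNAs lay between 1.80 RPKM (DCL4) and 6.47 RPKM (RDR6). The 5 TAS transcripts with a value, from which miRNAs trigger such siRNAs, were even in level, from 9.27 RPKM for TAS1B to 13.1 RPKM for TAS1A. MIR173, whose miRNA acts on TAS1 and TAS2, was at 0.0991 RPKM.

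Of 87 target genes on the list, 79 could be matched to a value. Of these 69 (87.3%) were above 1 RPKM and 36 (45.6%) above 10 RPKM, with a median of 7.86 RPKM. The shares of protein-coding genes were 68.4% above 1 and 35.5% above 10 RPKM, and those of all listed genes 56.0% and 28.8%. The precursors and the targets of a family are given side by side, and a level of either in a single condition does not show an effect on the other. PHO2 had 47.3 RPKM, beside 64.2 RPKM summed over MIR399, and NLA had 7.62 RPKM, beside 22.2 RPKM for MIR827A. The laccase genes LAC2, LAC4 and LAC17, targets of miR397 with a part in lignin, had 3.91, 12.2 and 15.3 RPKM, beside a precursor sum of 24.7 RPKM. LAC7, the target of miR857, had 111 RPKM. DCL1 with 2.78 RPKM stood below the MIR162 sum of 6.60 RPKM. The MIR159 targets MYB33 and MYB65 had 2.67 and 2.59 RPKM, beside 10.9 RPKM. PXMT1, a methyltransferase gene targeted by miR163, had 19.0 RPKM. It was added to the list after its value was seen.

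Several families with low precursors had targets above 20 RPKM, but not all of their targets were high. The MIR395 targets APS1, APS4 and SULTR2;1, for ATP sulfurylases and a sulfate transporter, had 279, 155 and 102 RPKM, and APS3 14.8 RPKM, beside a precursor sum of 0.175 RPKM. The auxin receptor genes TIR1, AFB1, AFB2 and AFB3, targets of miR393, had 21.3 to 36.4 RPKM, beside 0.712 RPKM. LCR, the target of miR394, had 29.7 RPKM, beside 0.211 RPKM. The superoxide dismutase genes CSD1 and CSD2 had 28.3 and 23.3 RPKM and their copper chaperone gene CCS 4.41 RPKM, beside 1.27 RPKM for MIR398. NF-YA2 had 87.3 RPKM, while the other MIR169 targets ranged from 3.15 to 15.3 RPKM and the median of all 7 was 7.11 RPKM. The 4 MIR408 targets ranged from 1.68 RPKM for LAC12 to 43.8 RPKM for LAC3. The MIR858 targets MYB11 and MYB12 had 0.332 and 8.77 RPKM, beside 0.453 RPKM for MIR858A.

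Targets of the developmental families covered a wide range. The SPL genes of MIR156 and MIR157 had a median of 1.21 RPKM over 9 genes, below the protein-coding median of 4.85 RPKM, with SPL6 highest at 7.55 RPKM, and SPL3 and SPL13A at 0. Repeated sequence and overlap with other genes were examined for MIR loci only. The 0 values of SPL3 and SPL13A, which enter the median, therefore need not mean absence of their RNA. The HD-ZIP III genes PHB, REV and PHV had 23.4, 17.8 and 11.9 RPKM. ARF10 and ARF16 had 15.7 and 17.1 RPKM, and ARF17 had 8.47 RPKM. HAM1 and HAM3 had 26.9 and 18.5 RPKM, AP2 34.2 RPKM, TOE1 10.9 RPKM, GRF3 21.4 RPKM and IAR3 46.2 RPKM. NAC100 and NAC1 had 18.6 and 15.5 RPKM, while CUC1 and CUC2, which are shoot boundary genes, were at 0.850 and 0.321 RPKM. TCP2 was the highest MIR319 target at 6.54 RPKM, and AGL16 had 18.8 RPKM beside 2.50 RPKM for MIR824A.

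**Figure D5:**
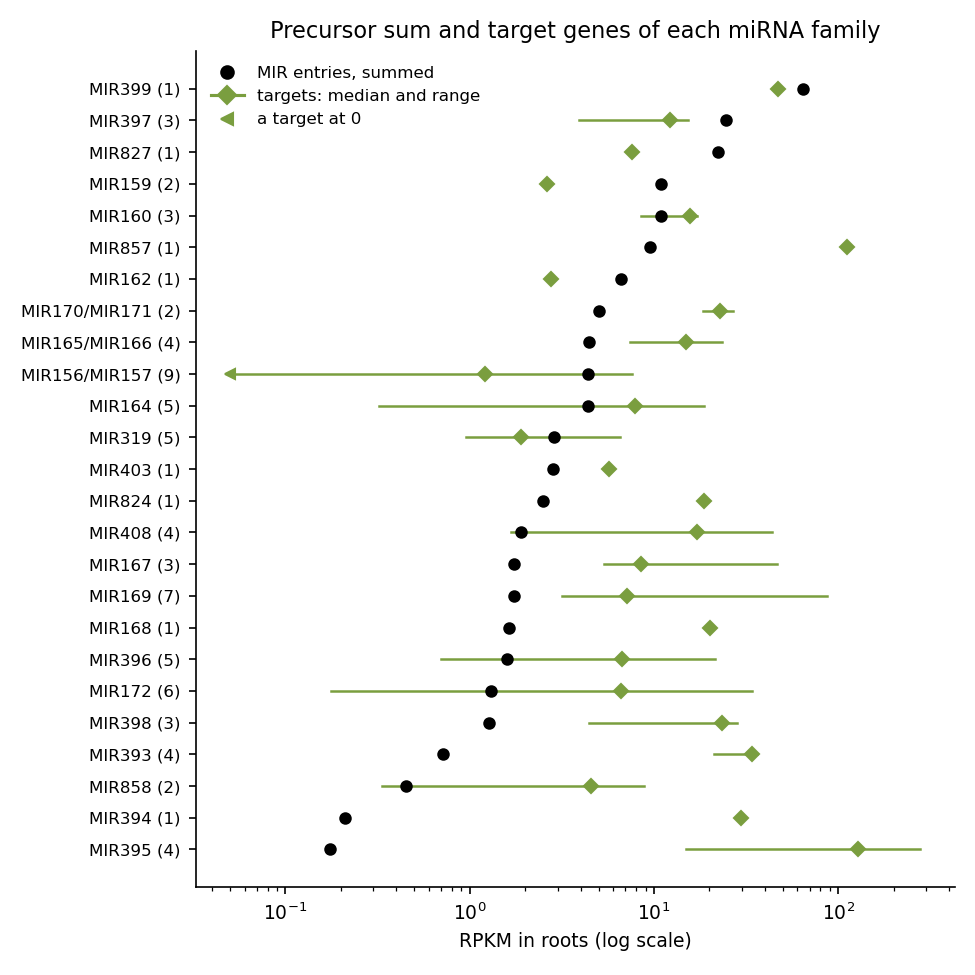
RPKM in roots on a log axis for 25 miRNA families or pairs of families, with the number of target genes with a value in brackets. Black points are the MIR entries of the family summed, green diamonds and lines the median and range of the targets. Precursor sums run from 0.175 RPKM for MIR395 to 64.2 RPKM for MIR399, and the precursor point lies right of the target median in MIR399, MIR397, MIR827, MIR159, MIR162, MIR156/MIR157 and MIR319.

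The pairing behind these families was read from the reference transcripts. For each miRNA the ungapped site with the lowest penalty was taken, with a mismatch counted as 1 and a G:U wobble as 0.5, and a bulge was allowed in IPS1, and each site is shown 5′ to 3′ with the bases that do not form a Watson-Crick pair in capitals.
PHO2 site of miR399d: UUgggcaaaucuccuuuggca
NLA site of miR827: Uguuuguugauggucaucuaa
LAC4 site of miR397b: AGucaacgCugcacuUaauga
LAC4 site of miR397a: AGucaacgcugcacuUaauga
LAC7 site of miR857: aCacaccuucaacGuacaaaa
HAM1 site of miR171a-3p: gauauuggcgcggcucaauca
PXMT1 site of miR163: CAUCGaguuccaaguccucuucaa
IPS1 site of miR399d: UUgggcaaCuUCUAuccuuuggca
The PHO2 site (chr2:14281884-14281904, minus strand) lies in the 5′ UTR and pairs at 19 of 21 bases, with 1 mismatch and 1 G:U wobble. It is 1 of 5 sites in that UTR with a penalty of at most 4. The NLA site (chr1:635401-635421, plus strand), also in the 5′ UTR, has 20 of 21 bases paired. The LAC4 site (chr2:15936120-15936140, plus strand) is coding and has 1 mismatch less with miR397a than with miR397b, although MIR397B was the higher precursor. The LAC7 site (chr3:2829996-2830397, minus strand) is coding, is split by an intron and has 19 of 21 bases paired, and the HAM1 site (chr2:18619128-18619148, minus strand) is coding and paired throughout. The PXMT1 site (chr1:24874307-24874330, minus strand) pairs at 19 of 24 bases. IPS1 (chr3:3051224-3051247, plus strand) pairs at 17 of 21 bases around a bulge of 3 bases. The search allowed a bulge only opposite the middle of the miRNA, where an Argonaute would cut, and without a penalty. Its place was thus set in advance, and only its length was searched.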

How the data were processed

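RNA-seq libraries of roots of 14-day-old plants (3 libraries, 1 condition) were analysed from the single deposited table. The authors counted reads per gene with HTSeq and computed RPKM with edgeR. The paper's methods name TopHat2 as the aligner and the submitters' processing notes STAR, both with TAIR10. Versions, annotation release, strand use, multiply mapped reads and the way the libraries were combined are not given in the sources used here. All 33446 deposited RPKM values were used as they stand, and 0 value columns were left out.

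Names were matched to TAIR10.1 (RefSeq). TAIR10.1 may differ from the annotation used for counting. Depth was fitted on 3980 low values of other genes, of which 63.0% were whole within 0.05 after multiplying by exon length minus 1 bp. The table does not show whether this is a pooled or a single library. The fit, shares, intervals and site search were tested on simulated data. Folds were predicted with RNAfold 2.7.2. Scripts ran under Python 3.11.15, with pandas 2.3.3, numpy 2.4.6, matplotlib 3.10.9 and scipy 1.17.1.

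The members were taken by name alone, but the name rule and the gene lists were set with earlier results of these data known. Named were entries above 1 RPKM (at most the 30 highest), the highest entry of each conserved family, loci in clusters or overlapping another gene, and list genes above 10 RPKM, at 0 or highest of their family. MIR161, MIR830A, MIR158A, MIR173, the MIR413 to MIR426 group, PXMT1, the housekeeping genes and other list genes under 10 RPKM were chosen after their values were seen. No test was run, since a single column gives no replicate error. Alternatives were thresholds of 0.5 and 2 RPKM, TPM, pseudocounts, and subsets of entries.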

Additional observations from a re-analysis of the deposited data

How the results depend on the processing

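No paired analysis was possible because the 3 libraries form a single condition in a single column, and for the same reason no library could be left out. Of the 43 alternative values, 23 stayed within the interval of the main value and 20 did not. This count includes TPM values set against RPKM intervals and changed thresholds, so it is no measure of robustness. The share of MIR entries above 1 RPKM was 31.4% at a threshold of 0.5 RPKM and 14.8% at 2 RPKM. In conserved families these shares were 37.6 and 15.3%, with 35.3% after rescaling to TPM, and in other families 25 and 14.3%, with 23.8% in TPM. Only 13 matched entries have at least 300 bp of exon. Among them 38.5% were above 1 RPKM and 69.2% above 0, the median was 0.288 RPKM and the 5 highest held 99.2% of the sum. The shares above 1 RPKM were then 0% (0 of 3) in conserved and 50% (5 of 10) in other families. The median of entries was 0.549 RPKM without those at 0. The median of log2(RPKM + 0.01) was −3.11 and became 0.15 with a pseudocount of 1. The 5 highest held 54.6% with matched entries only, 64.5% without loci overlapping another gene and 54.0% without entries up to 1 RPKM. The family sum of MIR399, 64.2 RPKM, was 106 in TPM. By the highest or the mean member, and without loci under 300 bp, MIR163 led with 61.5 RPKM. The median target had 12.9 TPM against 7.86 RPKM, and the highest targets of each family had a median of 21.4 RPKM. Depth limits entries at 0, which could hold up to 3 reads.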

Other observations

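At 172 bp, the length of MIR319b, the 2.86 RPKM of the entry named MIR319 equals 58.0 reads, while MIR319a has an entry of its own under the name JAW with 0.144 RPKM. At the length of MIR160c, the value of MIR160 equals 83.6 reads, which is not whole. These values were chosen after they were seen.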
